A study of Mus musculus with 8 samples.

Results

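Keratin-associated proteins are the matrix in which the keratin filaments of hair are embedded. They are made late in the differentiation of the hair shaft, in the cortex and cuticle, and their cysteines are crosslinked to one another and to the hair keratins. By convention they are sorted by amino acid content into high-sulfur, ultrahigh-sulfur and high glycine-tyrosine proteins, a class that goes with the number in the gene's name, and their genes lie in clusters of close paralogs. In newborn mouse skin the first hair shafts are still being built.

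The genes described here are all those whose platform symbol begins with Krtap and a digit, measured on a probe set that names 1 gene: 51 of the 22180 genes on the arrays. Of these, 15 belong by number to the high glycine-tyrosine class, 16 to the high-sulfur class and 17 to the ultrahigh-sulfur class. Krtap28-13, Krtap31-1 and Krtap31-2 have numbers to which no class was assigned here. The classes follow the numbers alone and no amino acid content was computed, so a member may be in the wrong class. Krtap16-3, counted here as high-sulfur, lies on chromosome 16 between the high glycine-tyrosine genes Krtap19-9b and Krtap22-2. A further 10 probe sets name a Krtap gene together with other genes and were left out, and with them Krtap2-4, Krtap3-2, Krtap3-3 and Krtap15, which have no probe set of their own. Probe set was the unit of measurement, and paralogs of 1 subfamily are alike in sequence, so the value of a single member may include signal from its neighbours.

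The study profiled epidermal RNA of C57BL/6J newborns on postnatal day 0. In 4 K320E-TwinkleEpi samples (K320E below), a mutant of Twinkle, the mitochondrial DNA helicase, was driven by the promoter of keratin 14 (K14), which is active in basal keratinocytes and in the outer root sheath of the follicle. The genotype label of the 4 control samples is R26-K320E-TwinkleloxP/+, so both genotype labels name the mutant Twinkle. The number of arrays limits the precision. The labels do not say that the samples are separate animals, so the p-values measure spread between these arrays alone, part of which may be technical. Values are log2 intensities, 1 array per sample, and each fold change is given as log2, K320E minus control.

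The labels were checked first. Twnk, the gene of Twinkle, measured 9.28, 9.09, 8.91 and 8.91 in K320E arrays 1 to 4, against 6.55, 6.95, 6.64 and 6.80 in control arrays 1 to 4, so that it rose by 2.31 on the log2 scale (SE 0.11 and limma adjusted p = 0.00011). An exact two-sided permutation test gave p = 0.0286, the smallest that 4 against 4 arrays allow. The keratins of the living epidermis were abundant on every array: Krt10 measured 12.89 to 12.95 in K320E and 12.88 to 12.99 in controls. Some arrays stood apart. Control 4 had the highest level of 44 of the 51 Krtap genes among all 8 arrays, where it was the highest array for 12.5% of all genes. The female-specific Xist measured 12.07 to 12.27 on K320E 1, 2 and 4 and controls 1 and 4, whose Y-linked genes had means of 4.75 to 4.82. K320E 3 was low in Xist (6.84) and high in the Y-linked genes (mean 8.64). Control 2 lay between these levels in Xist (9.27) and was high in the Y-linked genes (mean 9.05). Control 3 was low in both (6.17 and 4.75). Results are therefore given also without control 4, and without controls 2 and 3 together.

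The promoters of 6 members are shown because they carry a sequence feature that most of the family shares. They are the high glycine-tyrosine genes Krtap21-1, Krtap8-1 and Krtap6-5 and the ultrahigh-sulfur genes Krtap4-2 and Krtap4-7, which passed the test below with all arrays or without control 4, and Krtap31-2, whose levels in the genotypes lay close together; all 6 were chosen with their values known. Each sequence is the 150 bases before the annotated start, 5′ to 3′ on the gene's strand, from RefSeq (GRCm38.p6), and capitals mark the TATA box, searched as TATAAA on the gene's strand.
Krtap21-1: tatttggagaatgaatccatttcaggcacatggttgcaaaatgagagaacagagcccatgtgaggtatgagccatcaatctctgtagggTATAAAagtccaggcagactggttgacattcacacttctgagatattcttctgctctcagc
Krtap8-1: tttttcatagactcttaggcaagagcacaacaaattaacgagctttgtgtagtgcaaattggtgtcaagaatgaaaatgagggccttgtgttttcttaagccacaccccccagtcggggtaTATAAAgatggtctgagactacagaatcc
Krtap6-5: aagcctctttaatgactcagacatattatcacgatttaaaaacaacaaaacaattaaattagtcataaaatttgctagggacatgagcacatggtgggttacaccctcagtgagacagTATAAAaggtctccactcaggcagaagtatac
Krtap4-2: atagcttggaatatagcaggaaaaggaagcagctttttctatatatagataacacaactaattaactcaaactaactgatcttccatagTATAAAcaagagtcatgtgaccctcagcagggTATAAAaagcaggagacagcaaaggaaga
Krtap4-7: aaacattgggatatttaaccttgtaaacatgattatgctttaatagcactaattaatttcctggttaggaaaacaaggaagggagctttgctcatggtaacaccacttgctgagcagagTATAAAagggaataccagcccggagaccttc
Krtap31-2: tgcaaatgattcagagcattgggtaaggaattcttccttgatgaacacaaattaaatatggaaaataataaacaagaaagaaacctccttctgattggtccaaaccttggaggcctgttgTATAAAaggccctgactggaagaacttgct

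These windows lie at chr16:89403775-89403924, chr16:89487953-89488102, chr16:89047900-89048049, chr11:99635085-99635234 and chr11:99644090-99644239 on the minus strand and at chr11:99936141-99936290 on the plus strand, each adjoining the start of its gene. The TATA box nearest to the start begins 61, 29, 32, 29, 31 and 30 bases before it, in the order printed. A window of 300 bases, from 250 before to 50 after the start, was found for 46 of the 51 members; Krtap1-3, Krtap7-1, Krtap9-1, Krtap10-10 and Krtap12-1 had none. TATAAA stood on the gene's strand in 39 of the 46 windows (84.8%), against 8.32% of the 32851 windows of all genes and 11 of 19 windows of the hair shaft keratins and inner root sheath genes measured here. With both strands counted, the shares were 84.8% of the members' windows and 13.6% of all windows. It began between 40 and 20 bases before the start in 28 of the 46 (60.9%), against 1.99% of all windows and 9 of the 19 windows of the hair keratin and sheath genes (47.4%). Krtap31-2, with a log2 fold change near 0, carried it as well as the genes with large differences. The median log2 fold change was -1.02 (-2.86 to 0.09) for the 28 members with TATAAA at that place. It was -0.49 (-2.70 to -0.02) for the 18 without, and this difference was not tested.

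Motifs of hair transcription factors were counted in the same windows on both strands. A match to the HOXC13 motif (TTAAT or TTTAT, then any base and a pair of purines) stood in 23 of 46 windows, against 18.9% of all windows and 14 of the 19 windows of the hair shaft keratins and inner root sheath genes. CTTTGA, a core bound by TCF and LEF proteins, stood in 12 of 46 (26.1%), against 16.0% of all and 7 of those 19 (36.8%). ACGC, the core bound by FOXN1, stood in 11 of 46 (23.9%), against 55.3% of all and 8 of those 19 (42.1%). The HOXC13 and TATA motifs can overlap, and matches are letters in a window, not sites known to be bound. The windows of close paralogs are not independent of one another.

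Most Krtap genes had a lower mean level in K320E than in controls, with controls that differed widely among themselves. The log2 fold change was negative for 49 of 51 members, where 50.2% of all genes had a negative one, and its median was -0.75, against -0.00052 over all genes. The quartiles of the members lay at -1.28 and -0.18. At least a 2-fold lower level was seen for 21 members, against 0.234% of all genes: in all, 52 genes reached it, these 21 among them. Without control 4 only 9 members reached it, against 0.104% of all genes. Krtap9-5 and Krtap31-1 were the only members with a positive value, 0.09 and 0.03. In bulk epidermis, fewer hair-forming cells and less Krtap RNA in each of them cannot be told apart.

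**Figure D1:**
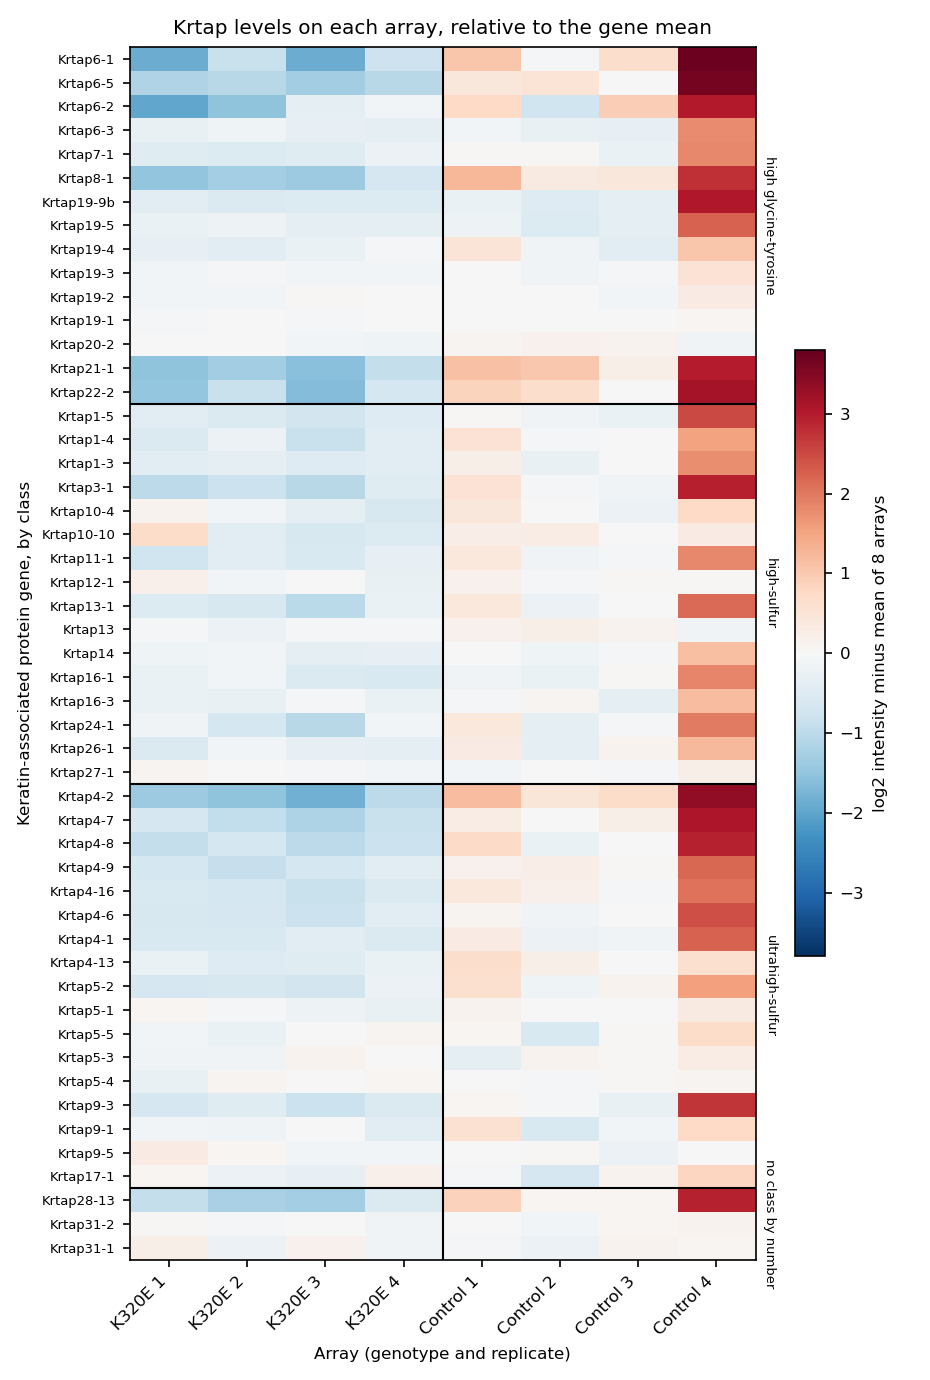
Log2 intensity of each of the 51 Krtap genes (rows, by class and subfamily number) on each of the 8 arrays (columns), as the difference from that gene's mean over the arrays; red is above and blue below that mean. The 4 K320E columns are mostly blue, and control 4 holds the highest value in 44 rows. Control 4 raises many of the row means, so many values of the other controls are blue as well.

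The mean level over the 51 members, on each array, was 5.87, 5.86, 5.76 and 5.96 in K320E arrays 1 to 4, against 6.61, 6.27, 6.33 and 7.90 in control arrays 1 to 4. Every K320E array lay below every control, and control 4, at 7.90, was above the next highest control, control 1, at 6.61. The K320E arrays lay close together, with a mean of 5.86 ± 0.08, and the controls were spread, with 6.78 ± 0.76 (SD, n = 4 each). Of the single members, 22 had every K320E array below every control, where 3.75% of all genes had, and 0 had every K320E array above every control, where 5.5% of all genes had.

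Against this spread, 1 member passed limma's test over all genes. Krtap21-1 fell by 2.67 (SE 0.49, limma adjusted p = 0.0475), and 0 members rose (0 also at an unadjusted p under 0.05), where 0.194% of all genes were called lower and 0.685% higher. It passed in 2 of the 8 fits that left out 1 array each, those without control 3 and without control 4, and its adjusted p reached 0.146 in the others. At an unadjusted p under 0.05 in limma there were 23 members, all of them lower, against 6.06% of all genes called lower at that level. The residual SD within genotypes had a median of 0.65 over the members and 0.12 over all genes. The spread lay mainly in the controls: the SD between arrays had a median of 0.17 in K320E and 0.91 in controls, and the control SD was the larger for 46 of 51 members, against 11073 of the 22180 genes. Many K320E values were low: 14 members lay in the lowest 33.3% of genes by mean level. Of the other 37, 8 had a K320E mean below that limit. The part of these low levels in the K320E SD was not tested.

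**Figure D2:**
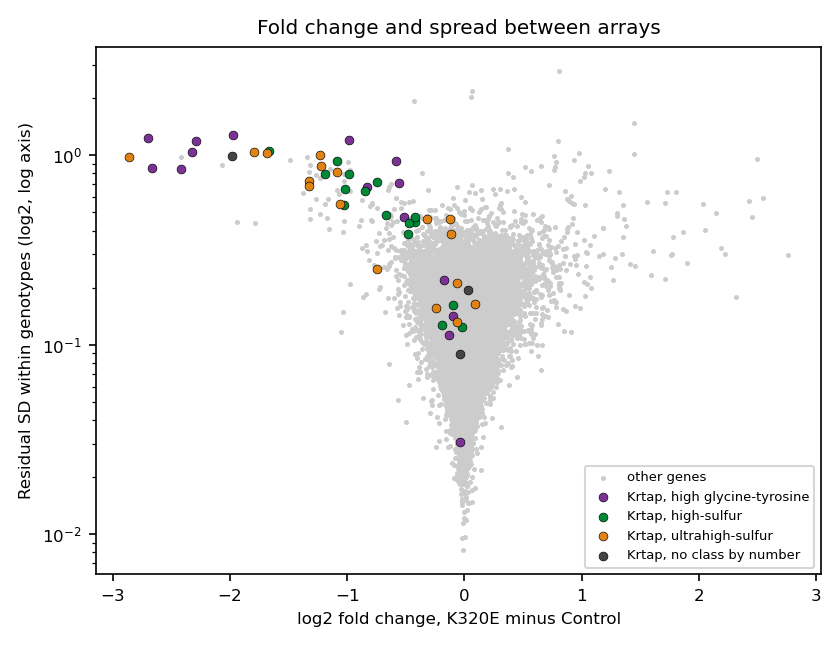
Log2 fold change (K320E minus control, horizontal) and residual SD within genotypes (vertical, log axis) of every gene. Krtap genes are coloured by class and other genes are grey; Krtap genes with fold changes below -1 have residual SDs of 0.54 to 1.27, where the median of all genes is 0.12.

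Leaving out control 4 lowered both the differences and the spread. The family median was then -0.37, the median residual SD 0.19, and 44 of 51 fold changes were negative, where 50.6% of all genes were. In that fit 7 members were lower by limma's test over all genes, against 0.149% of all genes: Krtap21-1, Krtap8-1, Krtap6-5, Krtap4-2, Krtap4-7, Krtap4-9 and Krtap4-16. Control 4 was singled out by its levels of these same genes, so the p-values without it follow a choice made on the values tested. Every K320E array was below each of the other 3 controls for 24 members, against 5.72% of all genes. Without controls 2 and 3, which leaves 2 control arrays, the family median was -1.31 and 7 members were lower, against 0.216% of all genes: Krtap21-1, Krtap8-1, Krtap4-2, Krtap4-13, Krtap5-2, Krtap9-1 and Krtap19-4. The controls left in that fit, 1 and 4, have the highest Krtap means (6.61 and 7.90), and controls 2 and 3 the lowest of the controls (6.27 and 6.33). A larger difference in that fit thus follows from the arrays left out. Krtap21-1, Krtap8-1 and Krtap4-2 were called in both fits, which share control 1 and all K320E arrays. The 8 fits that leave out 1 array each gave family medians of -0.96 to -0.37.

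**Figure D3:**
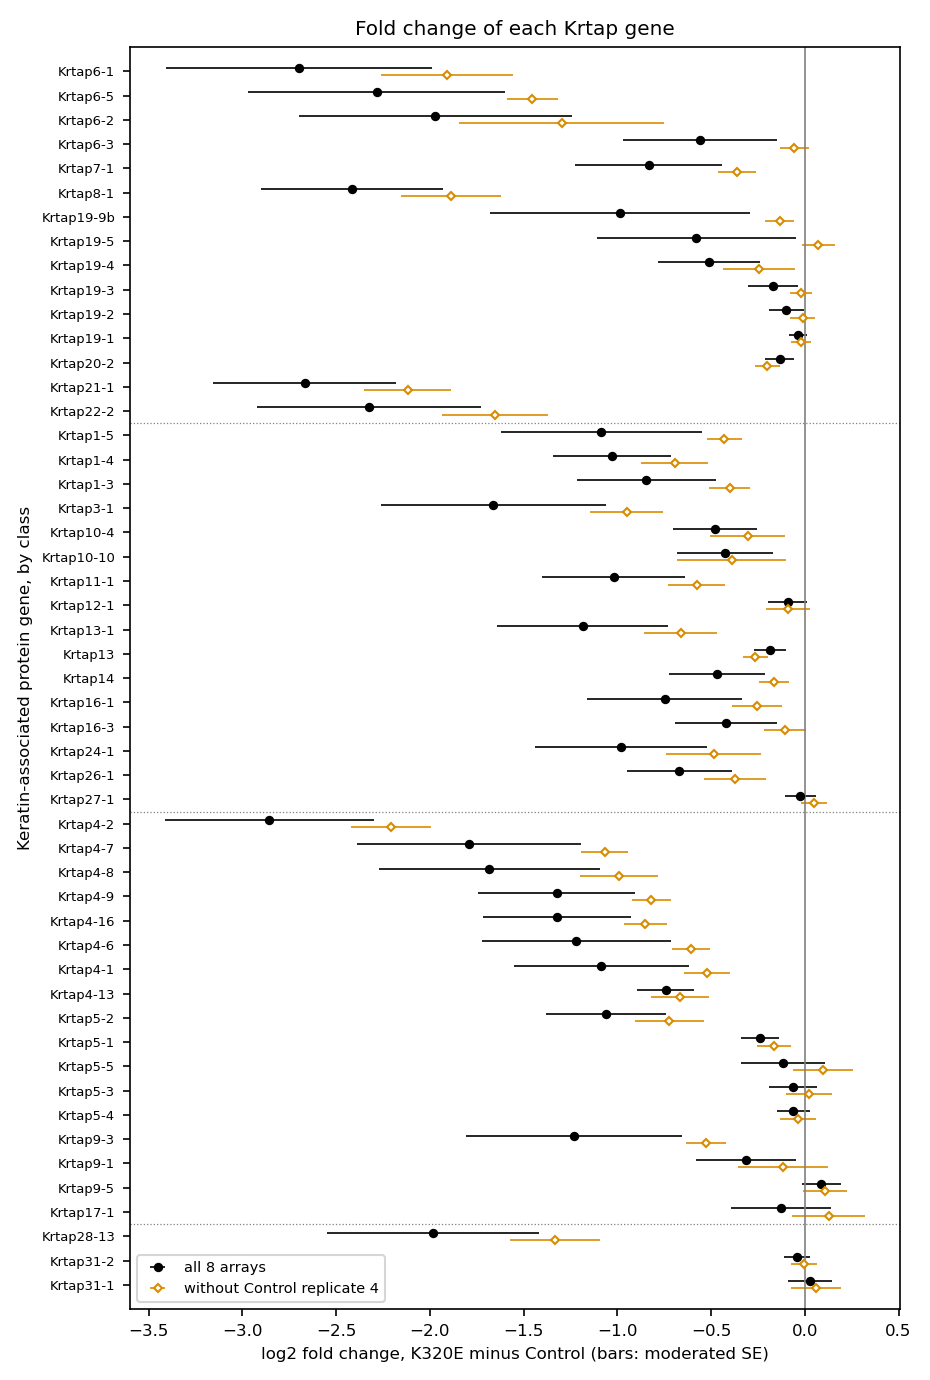
Log2 fold change of each Krtap gene (K320E minus control, horizontal; bars are moderated SEs) in the fit of all 8 arrays (black circles) and in the fit without control 4 (open orange diamonds). The median difference is -0.37 without control 4 and -0.75 with all arrays, and Krtap4-2, Krtap21-1 and Krtap8-1 lie at -2.21, -2.12 and -1.89 without control 4.

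The high glycine-tyrosine proteins (subfamilies 6, 7, 8, 19, 20, 21 and 22) are small matrix proteins of the hair cortex, and all 15 genes measured lie on chromosome 16. All 15 fold changes were negative, with a median of -0.83, but they ranged widely, from -2.70 to -0.04. Without control 4 the class median was -0.24, with 14 of 15 negative. Krtap21-1, the 1 called member, measured 5.36, 5.57, 5.29 and 5.97 in K320E arrays 1 to 4, against 7.99, 7.90, 7.11 and 9.86 in control arrays 1 to 4. Its groups did not overlap, and without control 4 its fold change was -2.12 (limma adjusted p = 0.0103).

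Krtap8-1, a gene of the same cluster, measured 7.51, 7.73, 7.63 and 8.36 in K320E arrays 1 to 4, against 10.28, 9.35, 9.45 and 11.80 in control arrays 1 to 4. All 4 controls were above all 4 K320E arrays, with a log2 fold change of -2.41 (SE 0.49 and limma adjusted p = 0.0642), and of -1.89 (limma adjusted p = 0.0275) without control 4. Krtap22-2 measured 5.45, 6.07, 5.28 and 6.27 in K320E arrays 1 to 4, against 7.77, 7.59, 6.91 and 10.10 in control arrays 1 to 4. These groups did not overlap either, with a fold change of -2.32 (SE 0.60 and limma adjusted p = 0.122).

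Subfamily 6 had 4 members, with fold changes between -2.70 and -0.56. Krtap6-1 measured 5.26, 6.31, 5.26 and 6.34 in K320E arrays 1 to 4, against 8.19, 7.11, 7.81 and 10.86 in control arrays 1 to 4, without overlap and with a fold change of -2.70 (SE 0.71 and limma adjusted p = 0.129). Krtap6-5 measured 5.001, 5.09, 4.82 and 5.08 in K320E arrays 1 to 4, against 6.56, 6.68, 6.12 and 9.78 in control arrays 1 to 4. Its K320E arrays were tightly grouped and its controls higher, control 4 most of all; the fold change was -2.28 (SE 0.68 and limma adjusted p = 0.172), and -1.45 (limma adjusted p = 0.00676) without control 4. Krtap6-2 measured 4.96, 5.43, 6.60 and 6.83 in K320E arrays 1 to 4, against 7.69, 6.17, 7.89 and 9.95 in control arrays 1 to 4. Control 2 lay below K320E 3 and K320E 4, so the groups overlapped, and the fold change was -1.97 (SE 0.73 and limma adjusted p = 0.249). Krtap6-3 measured 4.51, 4.63, 4.48 and 4.47 in K320E arrays 1 to 4, against 4.71, 4.53, 4.50 and 6.59 in control arrays 1 to 4; here control 4 alone stood above the rest.

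In several other high glycine-tyrosine genes, control 4 was high and the remaining arrays lay close together. Krtap19-9b measured 4.71, 4.55, 4.60 and 4.60 in K320E arrays 1 to 4, against 4.87, 4.63, 4.75 and 8.16 in control arrays 1 to 4. Without control 4 its fold change of -0.99 became -0.14 (limma adjusted p = 0.511). The 6 members of subfamily 19 had fold changes from -0.99 to -0.04 with all arrays and from -0.24 to 0.07 without control 4. Krtap7-1 had a fold change of -0.83 (SE 0.39 and limma adjusted p = 0.368) and Krtap20-2 of -0.13 (SE 0.08 and limma adjusted p = 0.482). Krtap20-2 was the 1 gene of the class in which control 4 (4.90) was the lowest control. Of the 14 Krtap genes in the lowest 33.3% of all genes by mean level, 8 belonged to this class.

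**Figure D4:**
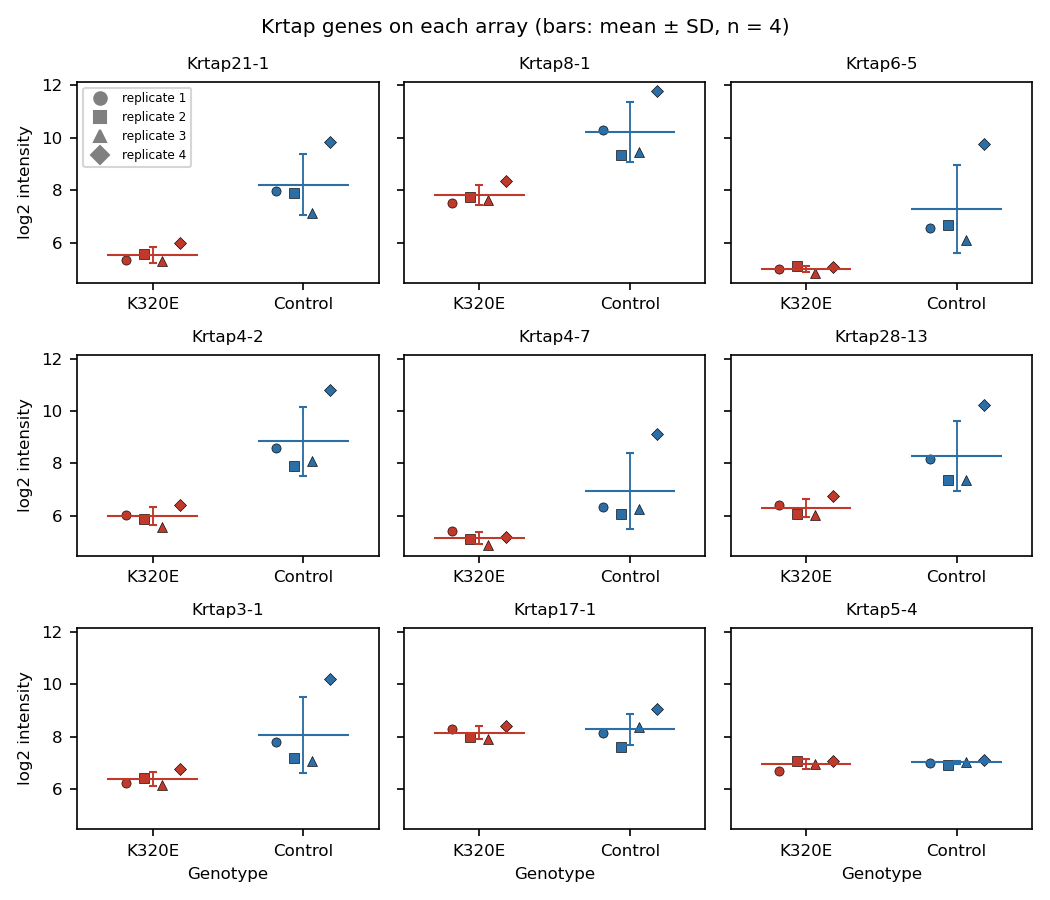
Log2 intensity of 9 Krtap genes on each array (points, marker by replicate number), with the mean and SD of the 4 arrays of each genotype (bars), K320E left of control. In Krtap21-1, Krtap8-1, Krtap6-5, Krtap4-2, Krtap4-7, Krtap28-13 and Krtap3-1 the genotypes do not overlap; in Krtap17-1 and Krtap5-4 they do.

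The ultrahigh-sulfur proteins (subfamilies 4, 5, 9 and 17), rich in cysteine and found in cortex and cuticle, had a different median fold change in each subfamily, which was not tested. The class median was -1.06, with 16 of 17 fold changes negative, and without control 4 it was -0.53, with 13 of 17 negative. All 8 members of subfamily 4, a cluster on chromosome 11, had every K320E array below every control, with fold changes from -2.86 to -0.74. Of all genes, 3.75% had every K320E array below every control, and the values of close paralogs may share signal. Krtap4-2, with the lowest fold change of the family, measured 6.03, 5.89, 5.59 and 6.41 in K320E arrays 1 to 4, against 8.59, 7.89, 8.09 and 10.79 in control arrays 1 to 4. Its fold change was -2.86 (SE 0.56 and limma adjusted p = 0.0576), just outside the threshold, and -2.21 (limma adjusted p = 0.00689) without control 4.

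Krtap4-7 measured 5.42, 5.10, 4.88 and 5.21 in K320E arrays 1 to 4, against 6.33, 6.07, 6.26 and 9.13 in control arrays 1 to 4. The fold change was -1.79 (SE 0.60 and limma adjusted p = 0.209), and -1.07 (limma adjusted p = 0.014) without control 4. Krtap4-13 measured 7.42, 7.19, 7.22 and 7.42 in K320E arrays 1 to 4, against 8.36, 7.91, 7.65 and 8.29 in control arrays 1 to 4. It was the member of subfamily 4 whose control 4 value did not exceed that of control 1, and its fold change was -0.74 (SE 0.15 and limma adjusted p = 0.0645). The fold changes were -1.68 for Krtap4-8, -1.32 for Krtap4-9, -1.32 for Krtap4-16, -1.22 for Krtap4-6 and -1.08 for Krtap4-1. Without control 4 all 8 still lay below 0, between -2.21 and -0.52.

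The 5 members of subfamily 5, on chromosome 7, had a median fold change of -0.12, and of -0.037 without control 4. Krtap5-2 measured 6.48, 6.50, 6.41 and 6.89 in K320E arrays 1 to 4, against 7.71, 6.93, 7.24 and 8.65 in control arrays 1 to 4, without overlap, and had a fold change of -1.06 (SE 0.32 and limma adjusted p = 0.172), the lowest of its subfamily. Krtap5-4 measured 6.71, 7.08, 6.97 and 7.07 in K320E arrays 1 to 4, against 7.01, 6.93, 7.04 and 7.09 in control arrays 1 to 4. K320E 1 lay below every control and the other K320E arrays lay among the controls, with a fold change of -0.06 (SE 0.09 and limma adjusted p = 0.812). Krtap5-1, Krtap5-3 and Krtap5-5 had fold changes of -0.24, -0.06 and -0.12, and the other probe set of Krtap5-1 differed by -0.28. Krtap17-1 measured 8.30, 7.98, 7.91 and 8.43 in K320E arrays 1 to 4, against 8.14, 7.59, 8.36 and 9.04 in control arrays 1 to 4. Its groups overlapped, and its fold change of -0.13 was 0.13 without control 4. In subfamily 9, on chromosome 11, Krtap9-3 had a fold change of -1.23 (SE 0.58 and limma adjusted p = 0.366) with no overlap, Krtap9-1 of -0.31 and Krtap9-5 of 0.09.

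The high-sulfur proteins (here subfamilies 1, 3, 10 to 14, 16, 24, 26 and 27) had a class median of -0.71, and all 16 fold changes were negative. Without control 4 the class median was -0.38, with 15 of 16 negative. The 4 members of subfamilies 1 and 3, which lie in the chromosome 11 cluster, did not overlap between the genotypes. The share of all genes with every K320E array below every control was 3.75%. Krtap3-1 measured 6.24, 6.41, 6.17 and 6.76 in K320E arrays 1 to 4, against 7.79, 7.17, 7.09 and 10.19 in control arrays 1 to 4, a fold change of -1.66 (SE 0.60 and limma adjusted p = 0.241). Krtap1-4 measured 5.81, 6.15, 5.53 and 5.92 in K320E arrays 1 to 4, against 6.92, 6.33, 6.39 and 7.89 in control arrays 1 to 4, a fold change of -1.03 (SE 0.31 and limma adjusted p = 0.176). Krtap1-5 and Krtap1-3 had fold changes of -1.09 and -0.85. Of the high-sulfur genes on chromosome 16, Krtap13-1 (-1.19) and Krtap11-1 (-1.02) did not overlap, while Krtap24-1 (-0.98), Krtap26-1 (-0.67), Krtap14 (-0.47), Krtap16-3 (-0.42), Krtap13 (-0.19) and Krtap27-1 (-0.02) did. Krtap16-1, on chromosome 11, had overlapping groups and a fold change of -0.75.

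The 3 genes of subfamilies 10 and 12, on chromosome 10, had overlapping groups. Krtap10-10 measured 8.58, 7.49, 7.29 and 7.36 in K320E arrays 1 to 4, against 8.15, 8.17, 7.88 and 8.21 in control arrays 1 to 4. K320E 1 was the highest of all 8 arrays and the other K320E arrays were below the controls, so that the fold change was -0.42 (SE 0.26 and limma adjusted p = 0.504) with all arrays and -0.73 (limma adjusted p = 0.0235) without K320E 1. That array stands out by its level of this same gene, so the p-value without it follows a choice made on the values tested. Krtap10-4 measured 6.87, 6.63, 6.39 and 6.12 in K320E arrays 1 to 4, against 7.16, 6.76, 6.51 and 7.50 in control arrays 1 to 4, a fold change of -0.48 (SE 0.22 and limma adjusted p = 0.366). In Krtap12-1 the fold change was -0.09. Among the genes with no class by number, Krtap28-13, the 1 member on chromosome 1, measured 6.40, 6.05, 6.02 and 6.76 in K320E arrays 1 to 4, against 8.17, 7.38, 7.37 and 10.23 in control arrays 1 to 4. Its groups did not overlap and its fold change was -1.98 (SE 0.56 and limma adjusted p = 0.155). Krtap31-1 and Krtap31-2 had fold changes of 0.03 and -0.04.

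By chromosome, the median fold change was -0.67 for the 23 members on chromosome 16, -1.08 for the 19 on chromosome 11, -0.42 for the 3 on chromosome 10 and -0.12 for the 5 on chromosome 7. Without control 4 these medians were -0.26, -0.53, -0.31 and -0.037 in the same order. Chromosomes 16 and 11 each held members near 0 as well as members with large differences. The correlation between the levels of a pair of members had a median of 0.11 over the 4 K320E arrays and 0.89 over the 4 control arrays (1275 pairs). These are descriptions over 4 arrays that all pairs share, and over the 3 controls other than control 4 the median was 0.50. Many members had low levels in K320E, and the part of this in the K320E median was not tested.

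The hair keratins form the filaments to which Krtap proteins are bound. All 15 measured hair shaft keratins had negative fold changes, with a median of -0.48, and 0 passed limma's test over all genes. At an unadjusted limma p under 0.05, 7 of them were lower. Of all genes, 14.8% passed that level in either direction and 6.06% were lower. Without control 4 the median was -0.27. Their mean level was 6.35, 6.27, 6.21 and 6.43 in K320E arrays 1 to 4, against 6.79, 6.51, 6.50 and 7.48 in control arrays 1 to 4. Control 4 was the highest array here too, as it was for the Krtap genes. Krt34, a cortex keratin, had a fold change of -1.27 (SE 0.45 and limma adjusted p = 0.233) and Krt35, made early in the shaft, of -0.48. Krt36 had the lowest p of the list, with a fold change of -0.48 (SE 0.15 and limma adjusted p = 0.176).

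The inner root sheath, the layer that moulds the shaft, is built from other keratins and from trichohyalin. All 11 of its measured genes had negative fold changes, with a median of -1.16, and 0 passed limma's test over all genes. At an unadjusted limma p under 0.05, 9 of them were lower. Of all genes, 14.8% passed that level in either direction and 6.06% were lower. Without control 4 the median was -0.76, with 10 of 11 negative. Their mean level was 7.76, 7.51, 7.35 and 7.92 in K320E arrays 1 to 4, against 8.97, 7.93, 8.17 and 9.39 in control arrays 1 to 4. K320E 4 and control 2 were at nearly the same level, and controls 1 and 4 lay above the rest. Tchh, which encodes trichohyalin, had a fold change of -1.32 (SE 0.30 and limma adjusted p = 0.0924), Tchhl1 of -1.16 (SE 0.24 and limma adjusted p = 0.0658) and the sheath keratin Krt71 of -1.37 (SE 0.36 and limma adjusted p = 0.132).

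**Figure D5:**
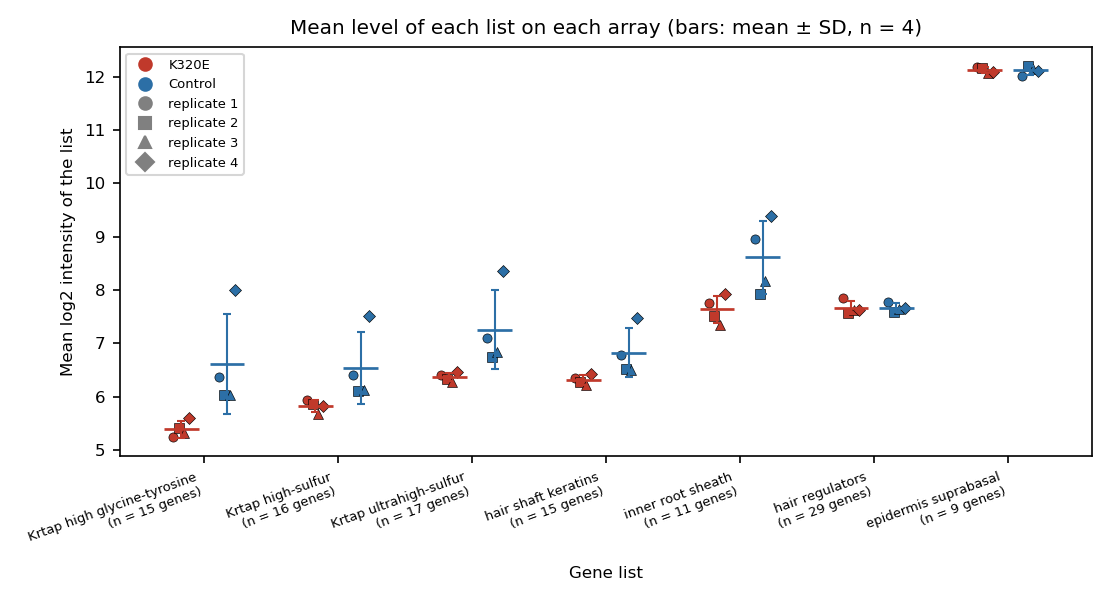
Mean log2 intensity of each gene list on each array (points, marker by replicate number), with the mean and SD of the 4 arrays of each genotype (bars), K320E left of control. The Krtap classes, hair shaft keratins and inner root sheath genes are lower in K320E with control 4 highest, while the hair regulators and the suprabasal epidermal genes overlap between the genotypes.

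Regulators of hair growth lay on both sides of 0. Of 29 measured, 18 had negative and 11 positive fold changes, with a median of -0.01, and 0 passed limma's test over all genes (4 of 29 genes at an unadjusted p under 0.05, near the 14.8% of all genes). Hoxc13, a homeobox factor of the hair matrix and shaft, measured 6.18, 5.99, 5.97 and 6.01 in K320E arrays 1 to 4, against 6.13, 5.87, 6.03 and 6.14 in control arrays 1 to 4, and its groups overlapped. The fold change was 0.19 for Foxn1, the factor lost in nude mice, and 0.09 for Lef1, the Wnt effector of the hair matrix. Fgf7 had the lowest p of the list, with a fold change of 0.38 (SE 0.14 and limma adjusted p = 0.232). The hair matrix markers as a list had a mean level of 7.04 ± 0.16 in K320E and 7.25 ± 0.25 in the controls (SD, n = 4 for each genotype). Of the 7, Dsg4 (-1.09), a desmosomal cadherin of the shaft, and Krt35 were the lowest.

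Other genes of the differentiating shaft had fold changes of either sign. Of 13 measured, 9 had negative fold changes, with a median of -0.25. The shaft's calcium-binding protein S100a3 had a fold change of -1.23 (SE 0.44 and limma adjusted p = 0.232) and the metallothionein Mt4 of -1.32 (SE 0.27 and limma adjusted p = 0.0651). The desmosomal cadherin Dsc2, which the epidermis also expresses, rose by 1.35 (SE 0.22, limma adjusted p = 0.0265), the 1 called gene of the list; without control 4 its fold change was also 1.35, with a limma adjusted p of 0.0674. In the list of companion layer and medulla keratins, which interfollicular keratinocytes also make under stress, the median was 0.83 over 4 genes, and 0.42 without control 4, and 0 passed. Krt6a, a keratin of the companion layer, measured 12.20, 11.53, 11.998 and 11.96 in K320E arrays 1 to 4, against 10.01, 10.38, 11.07 and 9.02 in control arrays 1 to 4. Control 4, the highest control for the Krtap genes, was the lowest of all arrays for Krt6a, and the fold change was 1.80 (SE 0.37 and limma adjusted p = 0.0651).

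Markers of other cells were set beside these values, and their part in the Krtap differences was not tested. The mean of 7 basal keratinocyte markers ran from 10.29 to 10.52 in K320E, against 10.14 to 10.32 in controls, that of 9 suprabasal markers from 12.08 to 12.18 in K320E, against 12.02 to 12.21 in controls, and that of 11 sebocyte markers from 7.36 to 7.69 in K320E, against 7.61 to 8.29 in controls. The mean of 10 melanocyte markers ran from 7.69 to 8.03 in K320E, against 7.93 to 8.32 in controls, with 9 of 10 fold changes negative. Melanocytes of the mouse sit mainly in hair follicles. Among them Mlana had a fold change of -0.40 (SE 0.11 and limma adjusted p = 0.162) and Dct of -0.29 (SE 0.17 and limma adjusted p = 0.491). The mean of 8 fibroblast markers ran from 7.72 to 8.47 in K320E, against 7.58 to 8.25 in controls, that of 10 dermal papilla markers from 5.86 to 6.10 in K320E, against 5.83 to 5.94 in controls, that of 9 skeletal muscle markers, of which all 9 fold changes were positive, from 6.80 to 7.97 in K320E, against 6.35 to 7.16 in controls, and that of 7 Langerhans cell markers from 6.51 to 6.65 in K320E, against 6.89 to 6.98 in controls. Control 4 had the lowest mean of all 8 arrays for the fibroblast, dermal papilla and muscle markers, and the highest for the sebocyte markers. Limma called 1 sebocyte gene lower, Far2 (-0.39), and 2 Langerhans cell genes lower, H2-Aa (-1.05) and H2-Ab1 (-0.98), and 0 genes of the other cell lists. H2-Aa and H2-Ab1 encode MHC class II chains, and all 7 fold changes of the Langerhans cell list were negative. Of the 11 sebocyte fold changes, 8 were negative and 3 positive. The most abundant markers not yet given had fold changes of either sign, and none was called. The values were 0.27 for Krt14, -0.31 for Krt15, 0.07 for Krt1, 0.27 for Dgat2, -0.23 for Postn and -0.14 for Dcn. They were -0.26 for Vcan, 0.10 for Wif1, 1.03 for Tnnt3, 1.08 for Mylpf and -0.18 for Epcam.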

How the data were processed

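Epidermal total RNA was hybridised to 8 single-colour expression arrays, 4 K320E and 4 control, grouped by the genotype labels and numbered by the titles. Extraction used a Maxwell kit, and amplification and biotin labelling NuGen's Applause reagents, per the labels. The deposited values are log2 intensities per probe set, as the range of the values shows; how the authors corrected background, summarised probes and normalised the arrays is not given in the sources used here. The arrays' signal over background was therefore not assessed.

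Of 33793 probe sets, the platform annotation gives 1 gene for 23521, several for 1814 and none for 8458. Each of 22180 genes was represented by its probe set of highest mean level. All 51 Krtap members matched RefSeq (GRCm38.p6) by Entrez gene identifier, which gave their chromosomes and, where found, their promoter windows. Genotypes were compared by lmFit and eBayes of limma 3.58.1 (R 4.3.3) without covariates, with Benjamini-Hochberg adjustment over all genes, and a gene was called at an adjusted p below 0.05. "Fell" and "rose" are used of called genes. Promoter motifs were exact string matches.

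The members, their classes and the other gene lists were chosen with earlier results of these data known, so no p-value was adjusted over a list and no list was tested as a set. The rule for named genes took all called members, the lowest and highest fold change of each subfamily, up to 6 members of each class by p, and from each other list the called genes or the 1 with the lowest p (for cell types, the 2 most abundant). The remaining members and Krt34, Tchh, Krt71, Hoxc13, Foxn1, Dsg4, S100a3, Mt4 and H2-Aa were added after their values were seen. The alternatives were the mean over a gene's probe sets, quantile normalisation, centring of arrays, a filter on low values, another prior, array weights, a replicate block, a covariate for Y-linked genes, and fits with 1 array, or controls 2 and 3, left out. No batch is given in the labels.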

Additional observations from a re-analysis of the deposited data

Results flagged for a closer look

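In a group of 4 arrays, the gap of the highest or lowest array to its neighbour was divided by the range of the group, and a quotient above Dixon's critical value for 4 values was taken to set that array apart. Chance gives such a quotient in about 1 in 20 groups, and 180 groups were examined. Control 4 stood apart as the highest control for 13 Krtap genes and for 1 class mean. The quotients were 0.892 for Krtap1-5, 0.918 for Krtap4-7, 0.911 for Krtap4-6, 0.898 for Krtap4-9 and 0.887 for Krtap9-3. They were 0.898 for Krtap6-3, 0.848 for Krtap6-5, 0.861 for Krtap7-1, 0.868 for Krtap19-1, 0.885 for Krtap19-5 and 0.933 for Krtap19-9b. For Krtap14 the quotient was 0.869, for Krtap16-1 it was 0.857, and for the mean of the high glycine-tyrosine genes it was 0.8295. Krtap19-1 differed by little in level, with 4.61 on control 4. K320E 1 stood apart as the highest K320E array for Krtap10-10, with a quotient of 0.847. Outside the family, K320E 1 was the highest K320E array for Krt10 (0.838) and Lef1 (0.851), K320E 4 for Tchhl1 (0.85) and Postn (0.94), and K320E 3 was the lowest for S100a3 (0.87).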

How the results depend on the processing

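The number of Krtap genes called lower was 1 with all arrays and ranged from 0 to 7 when 1 array was left out, with 7 without control 4. It was 4 without the lowest 33.3% of genes by mean level, where 288 genes were called in either direction, and 4 with the replicate block, where 114 were. It was 0 with array weights (200 genes called), 0 with the Y-linked covariate (133) and 7 without controls 2 and 3 (185). Quantile normalisation, median centring and the mean over probe sets left it at 1, as did another prior, under which that gene was Krtap4-13; without K320E 1 it was Krtap10-10. None was called higher under any of the 17 alternatives. The block is no pairing from the labels: same-numbered arrays correlated at -0.06 to 0.14 in their deviations, and 114 genes were called with it against 195 without. Over all genes the calls ranged from 53, without K320E 3, to 288, without the low genes. Calls were 77 without K320E 4, 87 without control 1, 87 without control 2, 105 without K320E 1, 118 without control 4 and 133 with the covariate. Hair shaft keratins and inner root sheath genes called lower, 0 with all arrays, were 2 without these low genes, 1 with another prior, 1 with the block, 7 without controls 2 and 3, and 0 to 1 when 1 array was left out. Of all genes, 0.149% were called lower without control 4 and 0.216% without controls 2 and 3. For the other alternatives the share of all genes called lower was not computed. The family median stayed negative, at -1.31 to -0.37. When 1 array was left out, the class medians ranged from -1.06 to -0.24 (high glycine-tyrosine), -0.93 to -0.38 (high-sulfur) and -1.30 to -0.53 (ultrahigh-sulfur), each nearest to 0 without control 4. The ultrahigh-sulfur median was -1.61 without controls 2 and 3, a fit that keeps the controls with the highest Krtap means. The high glycine-tyrosine median was -2.32 over the 7 genes left by the level filter. That filter uses the mean of both genotypes, and 8 of the 37 Krtap genes it kept had a K320E mean below its limit and passed through their controls, so its count and this median bear on nothing beyond the filter.

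Some signs reversed, mostly for values near 0, and the cause was not tested; Krtap19-5, at -0.58 with all arrays, was the exception. When 1 array was left out, the fold change ranged from -0.19 to 0.025 for Krtap5-3, from -0.10 to 0.021 for Krtap5-4, from -0.33 to 0.098 for Krtap5-5, from -0.00026 to 0.14 for Krtap9-5, from -0.36 to 0.13 for Krtap17-1, from -0.85 to 0.071 for Krtap19-5, from -0.063 to 0.048 for Krtap27-1 and from -0.046 to 0.11 for Krtap31-1. It ranged from -0.023 to 0.017 for Krt10, from -0.0040 to 0.16 for Lef1 and from -0.058 to 0.033 for Hoxc13. The positive values of Krtap5-3, Krtap5-5, Krtap17-1 and Krtap19-5 came without control 4. Krtap31-1 was at -0.027 with array weights, Krt10 at 0.023 with quantile normalisation and 0.0049 with median centring, and Hoxc13 at 0.011 and 0.012 under these 2 settings. Dsc2 and Far2 also lost their calls in most fits with fewer arrays, with limma adjusted p up to 0.121 and 0.114, and H2-Ab1 lost its call without K320E 3 and without controls 2 and 3, with limma adjusted p of 0.0506 and 0.0552.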
